A study of Mus musculus with 12 samples.

Results

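The genes described here are 10 genes of MHC class II presentation, taken by symbol from both count tables of 32190 symbols each and followed over all 6 groups of the study. They are the transactivator gene Ciita, the chain genes H2-Aa, H2-Ab1 and H2-Eb1, the invariant chain gene Cd74, the peptide editor genes H2-DMa, H2-DMb1 and H2-DMb2, the editor's modulator gene H2-Oa, and the ubiquitin ligase gene Marchf1. All 10 were in both tables, and all 10 passed the filter on low counts in both.

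The study measured total RNA of mouse dendritic cells (DCs), the cells that take up antigen and show it to T cells, in 12 libraries, 2 per group. Tumoral DCs were sorted on day 7 (early) or day 14 (late) from mice that bore MC38 tumors, a mouse colon carcinoma line. The host strain is Zbtb46-Tdtomato, in which a red fluorescent protein marks cells that use the conventional DC gene Zbtb46, and both stages have WT as their genotype label. Bone marrow-derived DCs (BMDCs), which are grown in culture from marrow, came from WT mice or from mice labelled Pde5-/-, a knockout label for a cGMP phosphodiesterase. Both kinds were collected unstimulated or after 12 h with LPS (bacterial lipopolysaccharide, which Toll-like receptor 4 senses) at 200 ng/ml, and all 8 BMDC libraries have a label time of 9 days. Whether both libraries of a group stem from different mice or cultures is not in the labels. Each p-value thus sets a difference against the spread of these libraries only, which may be technical.

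MHC class II molecules are pairs of an alpha and a beta chain that carry peptides from endosomes to the surface of antigen-presenting cells for CD4 T cells. The invariant chain fills the peptide groove on the way, DM exchanges its remnant for other peptides, and DO restrains DM. Ciita is a coactivator that binds no DNA itself but joins the factors on the promoters of these genes, and MARCH1 attaches ubiquitin to the beta chain at the surface, which marks it for breakdown. When DCs mature, transcription of Ciita is known to be shut down while the class II molecules already made gather at the surface.

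The promoters of class II genes are known for the X and Y boxes that the factors beneath Ciita bind, of which the Y box reads CCAAT on one strand and ATTGG on the other. Of the 10 genes, 7 had a promoter entry in RefSeq (build GRCm38.p6, the assembly of mm10), with 10 windows of 300 bases from 250 before to 50 after a transcript start. A search was made for AAC followed after 24 to 28 bases by GATTGG, on both strands. Every such match holds GATTGG, and both motifs were chosen from the members' own sequences, so their presence there is a description. Of 32851 RefSeq windows of this length, 364 (1.11%) held the pair, and 5292 (16.1%) held GATTGG on either strand. Among the genes described here 5 held it, and the 130 bases before their starts are shown because this shared layout is what sets their promoters beside each other, with AAC and GATTGG in capitals, 5′ to 3′ on the strand of the gene.
H2-Aa, chr17:34287824-34287953, minus strand: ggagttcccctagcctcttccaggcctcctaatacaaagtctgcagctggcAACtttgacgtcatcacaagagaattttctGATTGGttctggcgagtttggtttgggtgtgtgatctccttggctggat
H2-Eb1, chr17:34305737-34305866, plus strand: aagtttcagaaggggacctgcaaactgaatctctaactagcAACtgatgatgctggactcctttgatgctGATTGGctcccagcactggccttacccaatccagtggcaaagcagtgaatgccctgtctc
H2-DMb1, chr17:34153061-34153190, plus strand: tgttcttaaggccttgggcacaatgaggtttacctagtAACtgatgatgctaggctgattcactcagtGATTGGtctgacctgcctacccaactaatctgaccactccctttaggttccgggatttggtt
H2-DMb2, chr17:34145119-34145248, plus strand: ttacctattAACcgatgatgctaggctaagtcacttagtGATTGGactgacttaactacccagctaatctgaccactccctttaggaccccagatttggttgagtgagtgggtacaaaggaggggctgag
H2-Oa, chr17:34092249-34092378, plus strand: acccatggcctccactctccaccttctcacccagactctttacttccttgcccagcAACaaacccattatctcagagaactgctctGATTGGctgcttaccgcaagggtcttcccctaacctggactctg

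The gap between both motifs was 26 bases in H2-Eb1 and 27 bases in the other 4. GATTGG began 44 bases before the start in H2-Oa, 49 in H2-Aa, 60 in H2-Eb1, 62 in H2-DMb1 and 91 in H2-DMb2. H2-DMa and Marchf1 each held GATTGG in 1 window but not the pair at this spacing, which says only that these letters are not so spaced there. GATTGG alone was thus found for all 7 genes with an entry. H2-DMb2 and H2-DMb1 held it with the same gap.

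In the genome 7 of the 10 genes lie together on chromosome 17, from H2-Oa at chr17:34092379-34095234 to H2-Eb1 at chr17:34305867-34316674. Ciita lies at chr16:10480014-10531064, Marchf1 at chr8:65618009-66472841 and Cd74 on chromosome 18. Some of the counts are uncertain because genes overlap or are near copies and no strand setting is known. H2-Oa shared 29.5% of its exon bases with BC051537 on the other strand, which had at most 7 counts in any library. Ciita shared 1.35% with Dexi, Cd74 0.847% with Mir5107, and Marchf1 9.16% with Gm15354. The transcripts of H2-DMb1 and H2-DMb2 were 75.0% identical over 1573 aligned positions, with a longest identical stretch of 221 bases, so the split of reads between them is uncertain.

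A BMDC library held 16.1 to 19.7 M counts and a tumoral library 14.2 to 19.3 M. Levels below are counts per M counts of the library (CPM), and statements on overlap of libraries refer to CPM. CPM leave out the TMM factors, edgeR's further scaling of libraries, which the fitted log2 and fold changes include. A fold change can therefore differ from the ratio of the CPM shown. The knockout label could not be checked through its target: Pde5a had 55 and 37 counts in the unstimulated WT libraries and 47 and 61 in the unstimulated knockout-labelled ones, with a log2 difference of 0.12 (SE 0.480, edgeR adjusted p 0.887). The libraries are therefore called knockout-labelled throughout. Zbtb46 was at 21.8 to 44.1 CPM in the tumoral and at 124 to 254 CPM in the BMDC libraries. The 10 conventional DC markers summed to 1415 to 1964 CPM over all libraries, with Cd209a at 0 in both LPS-treated WT libraries, and the 10 macrophage and monocyte markers to 5061 to 10028 CPM in tumoral DCs and to 598 to 1641 CPM in BMDCs. T cell markers summed to 336 and 584 CPM in the early tumoral libraries, to 65.1 and 107 CPM in the late ones and to at most 22.4 CPM in BMDCs. In bulk RNA, fewer cells of a type and less RNA per cell cannot be told apart.

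Together the 10 genes made up between 1.06 and 2.76% of all counts in a library. In unstimulated WT BMDCs they held 2.18 and 2.42%, and after LPS 1.1 and 1.49%. In the unstimulated knockout-labelled BMDCs they held 1.18 and 1.72%, and after LPS 1.19 and 1.06%. The tumoral libraries held 2.23 and 2.76% early and 1.78 and 2.33% late. Both unstimulated WT libraries thus stood above the other 6 BMDC libraries.

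Per kilobase of the median coding transcript, Cd74 was the most abundant of the 10 in unstimulated WT BMDCs, at 7601 ± 776 CPM per kb (SD, n = 2 here and below). H2-Aa followed at 4506 ± 282, H2-Ab1 at 3362 ± 279 and H2-Eb1 at 2221 ± 37.9 CPM per kb. The editor genes were far lower, with H2-DMb1 at 188 ± 40.6 and H2-DMa at 161 ± 40.7 CPM per kb, which did not differ beyond their spread. Ciita stood at 105 ± 4.72, H2-DMb2 at 47.5 ± 1.13, Marchf1 at 27.0 ± 4.75 and H2-Oa at 22.0 ± 5.44 CPM per kb, and these last 2 again lay within their spread. In early tumoral DCs H2-Ab1 stood before H2-Aa, at 4579 ± 728 and 4453 ± 383 CPM per kb, within their spread.

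**Figure D1:**
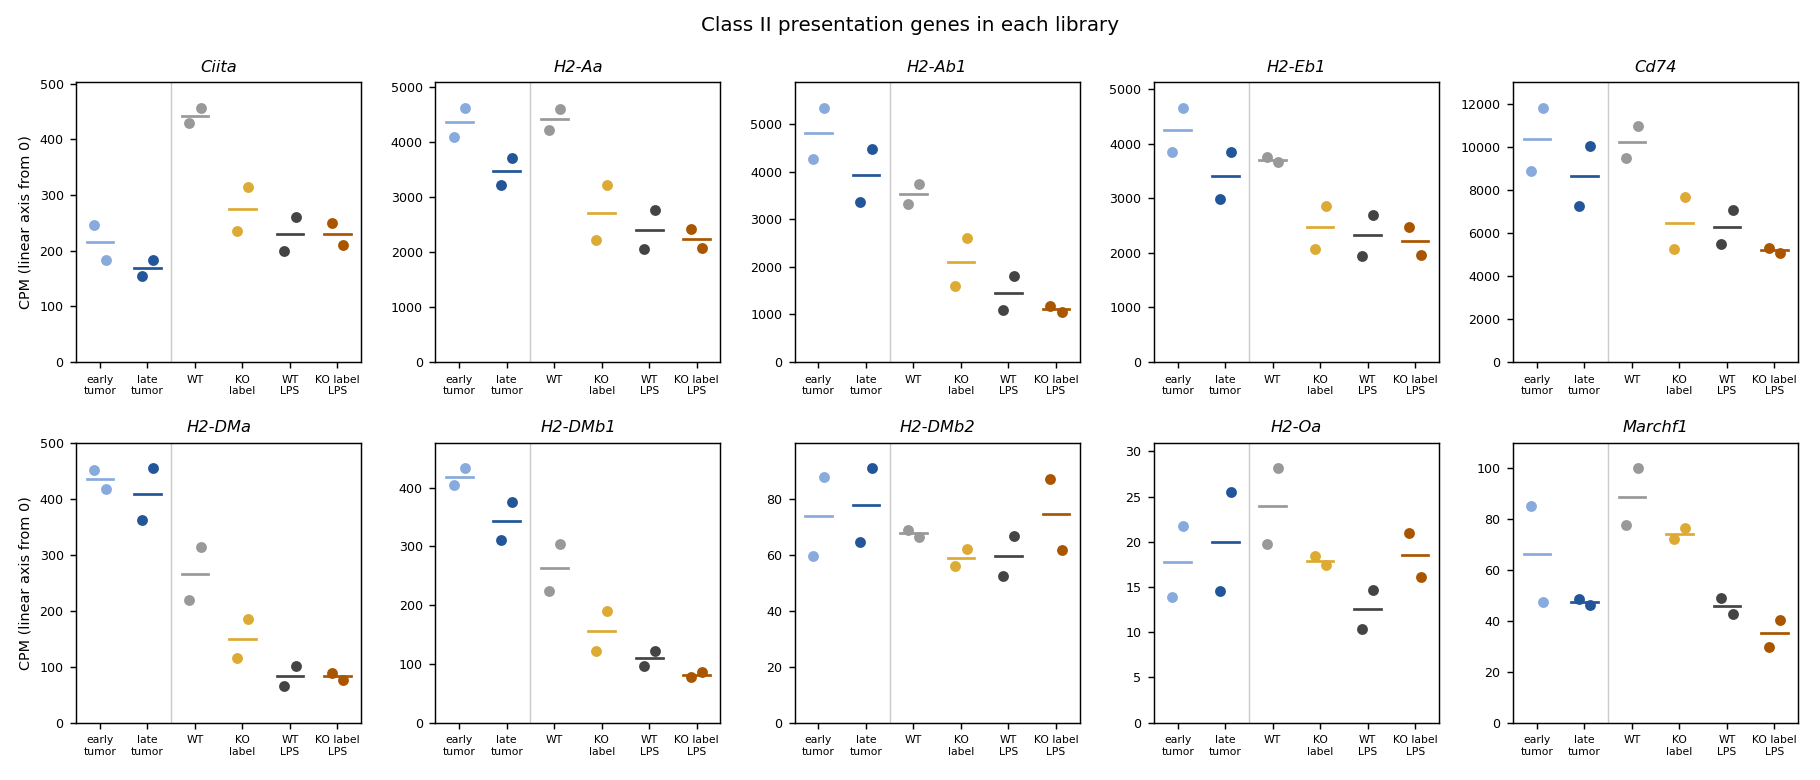
Level of each of the 10 genes in every library, in CPM, by group. Each point is a library and each bar the mean of 2 libraries. The unstimulated WT BMDCs lie above the other BMDC groups for Ciita (429 and 457 CPM), the chains, Cd74 and H2-DMa, while H2-DMb2 runs between 52.5 and 87.0 CPM in all BMDC groups.

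LPS in WT BMDCs was the comparison in which the class II genes moved most. Of the 10 genes, 7 fell (Ciita, H2-Aa, H2-Ab1, H2-DMa, H2-DMb1, H2-Oa and Marchf1), 0 rose and 3 did not pass the test. Of all 13072 genes tested, 17.6% fell, 20% rose and 37.6% changed in either direction. The median log2 change of the 10 was -0.73, against -0.02 over all genes. The libraries of both groups did not overlap in CPM for 9 of the 10, all lower with LPS, while 50.4% of all genes were all lower and 23.6% all higher. Scaling by library size alone moved the median of all genes from -0.02 to -0.23 and the calls over all genes from 2609 higher and 2301 lower to 1689 higher and 3728 lower. With that scaling 9 of the 10 genes fell.

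Ciita, the master coactivator, stood at 429 and 457 CPM in unstimulated WT BMDCs and at 199.8 and 261 CPM after LPS. Both LPS libraries lay well below both unstimulated ones. The fitted fall, which includes the TMM factors, was 1.67-fold (log2 change -0.74, SE 0.165, edgeR adjusted p 0.00927).

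Of the 3 chains H2-Aa and H2-Ab1 fell and H2-Eb1 did not pass the test, and the difference between their changes was not tested. H2-Ab1, the I-A beta chain, stood at 3325 and 3739 CPM without and at 1094 and 1809 CPM with LPS. The fitted fall was 2.11-fold (log2 change -1.08, SE 0.272, edgeR adjusted p 0.0169), and the 2 LPS libraries differed from each other by more than the unstimulated ones did. H2-Aa, its alpha chain partner, stood at 4208 and 4597 CPM without and at 2051 and 2750 CPM with LPS, a 1.59-fold fall (edgeR adjusted p 0.0291). H2-Eb1, the I-E beta chain, stood at 3752 and 3663 CPM without and at 1948 and 2700 CPM with LPS. Its libraries did not overlap, but its log2 change of -0.47 (SE 0.203) did not pass the test (edgeR adjusted p 0.0992). H2-Ea, the alpha chain that I-E needs, was at most 0.581 CPM in any of the 12 libraries and could not be tested.

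Cd74, the invariant chain that blocks the groove until it is cut away, stood at 9486 and 10961 CPM without and at 5478 and 7069 CPM with LPS. The libraries did not overlap, and the log2 change of -0.50 (SE 0.198) did not pass the test (edgeR adjusted p 0.0773). Together with H2-Eb1 it passed with DESeq2's test, at adjusted p 0.0211 for Cd74 and 0.0450 for H2-Eb1.

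The largest estimated fall of the 10 genes was that of H2-DMa, the alpha chain of the peptide editor. Whether it exceeded the falls of the others was not tested. H2-DMa stood at 219 and 315 CPM without and at 65.3 and 100.7 CPM with LPS, a 2.79-fold fall (log2 change -1.48, SE 0.285, edgeR adjusted p 0.00723). It was the member that kept its call in all 17 alternative analyses of this comparison. H2-DMb1, a beta chain, stood at 223 and 304 CPM without and at 97.0 and 122 CPM with LPS, a 2.08-fold fall (edgeR adjusted p 0.0085). H2-DMb2, the other beta chain gene, stood at 68.8 and 66.5 CPM without and at 52.5 and 66.7 CPM with LPS. Its groups overlapped, and its log2 change was 0.02 (SE 0.167, edgeR adjusted p 0.939), which turned to -0.18 when libraries were scaled by their size alone and to -0.046 with upper-quartile scaling.

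H2-Oa, the alpha chain of the DM modulator, had the lowest CPM of the 10, with transcript length left aside. It stood at 19.7 and 28.1 CPM without and at 10.4 and 14.7 CPM with LPS. It fell 1.66-fold (log2 change -0.73, SE 0.222, edgeR adjusted p 0.0321). H2-Ob, its beta chain partner, was named among the other genes of the region and fell further, from 54.2 and 73.3 CPM to 3.64 and 7.96 CPM (log2 change -3.25, SE 0.437, edgeR adjusted p 0.00204).

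Marchf1, the ligase that sends surface class II to breakdown, stood at 77.6 and 99.7 CPM without and at 49.0 and 42.6 CPM with LPS. It fell 1.68-fold (log2 change -0.75, SE 0.164, edgeR adjusted p 0.00874). Its close relative Marchf8 had a log2 change of -0.46 that did not pass the test (edgeR adjusted p 0.0562).

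These calls rested on pairs of libraries. Leaving out 1 of the 8 BMDC libraries in turn gave 2 to 8 called members, with 2 left (Ciita and H2-DMa) without unstimulated WT replicate 2 and 2 left (H2-DMa and Marchf1) without LPS-treated WT replicate 1. Markers of maturation moved with the same comparison: the 10 mature DC markers summed to 11240 and 13095 CPM without and to 20220 and 23120 CPM with LPS, 8 of 10 rose, and Ccr7, the receptor that leads mature DCs to lymph nodes, rose by 1.24 on the log2 scale (SE 0.170, edgeR adjusted p 0.00111). The B cell markers, a cell type that also expresses class II, summed to 127 and 239 CPM without and to 29.2 and 40.8 CPM with LPS, 1 of 6 tested (Ighm) fell, and Fcer2a was at 0 in both LPS libraries. Of the 10 conventional DC markers 3 rose and 5 fell, of the 10 macrophage and monocyte markers 5 rose and 2 fell (sums of 1218 and 1641 CPM without and 954 and 1107 CPM with LPS), and of 6 neutrophil markers tested 4 fell (100.4 and 157 CPM without and 28.8 and 38.2 CPM with LPS). The part of these markers in the fall of the class II genes was not tested.

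**Figure D2:**
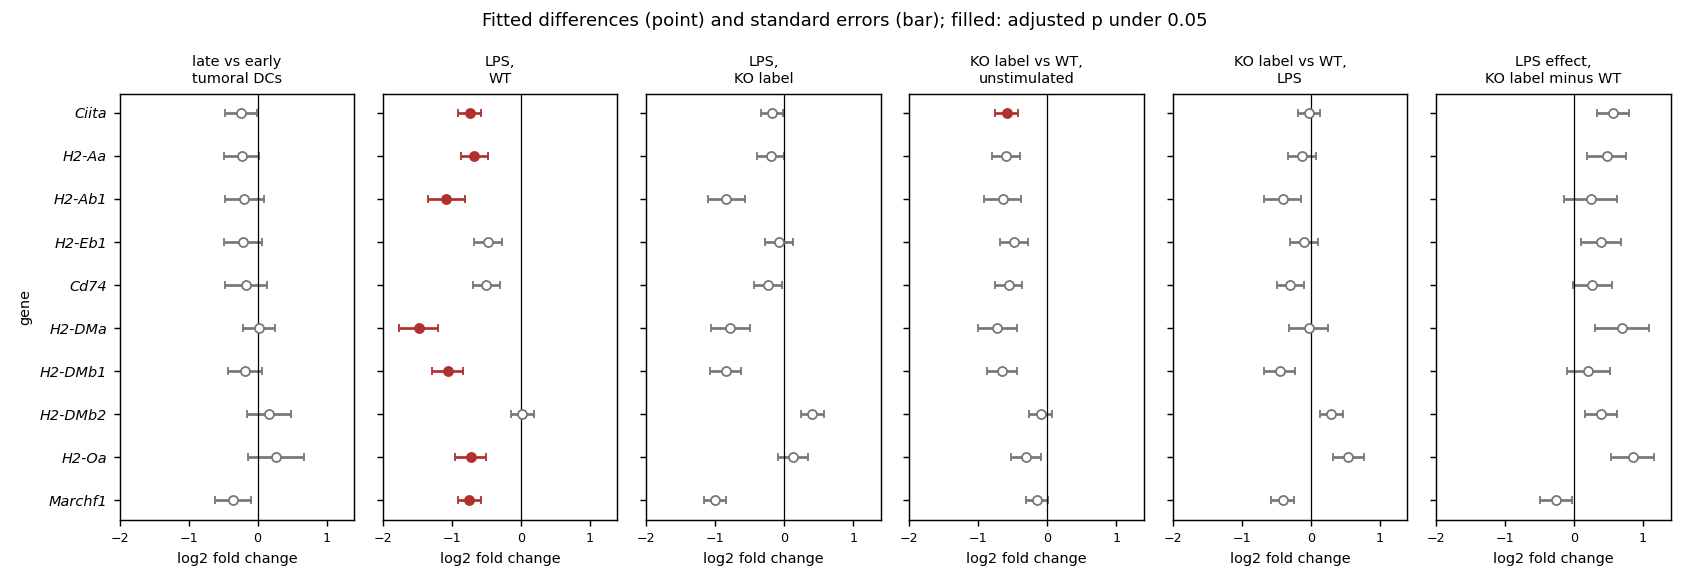
Log2 change of each of the 10 genes in the 5 pairwise comparisons and the interaction, with bars of 1 SE; filled points passed the edgeR test at an adjusted p under 0.05. For LPS in WT BMDCs 7 points are filled, from -1.48 for H2-DMa to -0.67 for H2-Aa, and for the knockout label without LPS only Ciita is.

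Without stimulation Ciita was lower in knockout-labelled than in WT BMDCs, and the other 9 genes did not pass the test. All 10 had a negative log2 difference, with a median of -0.57 against -0.01 over all genes. Ciita was the 1 of 10 called, all lower, where 5.98% of all genes tested were called lower, 12% higher and 18% in either direction. None of the 10 overlapped in CPM between these groups, all lower, while 40.7% of all genes were all lower and 25.5% all higher. The TMM factors of the fit were higher in both WT libraries than in both knockout-labelled ones. Divided by these factors, the CPM of Marchf1 and of H2-Oa overlapped. With DESeq2's test 7 of the 10 and 2570 of all genes were called. Over all genes the calls were 1575 higher and 782 lower, and 1282 higher and 1301 lower when libraries were scaled by their size alone.

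Ciita stood at 235 and 315 CPM in the knockout-labelled libraries, below the 429 and 457 CPM of WT, a 1.5-fold difference (log2 -0.59, SE 0.165, edgeR adjusted p 0.0414). The call was lost without either unstimulated WT library, without unstimulated knockout-labelled replicate 1 and without either LPS-treated knockout-labelled library, at adjusted p-values from 0.0562 to 0.245. When knockout-labelled replicate 2 without LPS was left out, 5 of the 10 were called.

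The other 9 genes gave adjusted p-values from 0.0694 to 0.72. H2-Aa stood at 2205 and 3216 CPM in the knockout-labelled libraries (log2 difference from WT -0.60, SE 0.200, edgeR adjusted p 0.0694). H2-Ab1 stood at 1605 and 2603 CPM (log2 difference -0.65, adjusted p 0.134) and H2-Eb1 at 2075 and 2859 CPM (log2 difference -0.49, adjusted p 0.128). In each of these genes replicate 1 was the lower of the pair, so the spread within the knockout-labelled group was wide.

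Cd74 stood at 5263 and 7658 CPM in the knockout-labelled libraries, with a log2 difference from WT of -0.56 (SE 0.199, edgeR adjusted p 0.0819). The editor genes H2-DMa and H2-DMb1 stood at 116 and 185 CPM and at 121 and 190 CPM, with log2 differences of -0.72 and -0.66 (adjusted p 0.117 and 0.0754). H2-DMb2 at 55.9 and 61.9 CPM, H2-Oa at 18.4 and 17.4 CPM and Marchf1 at 72.2 and 76.2 CPM were the closest to WT, with log2 differences of -0.10, -0.31 and -0.15. For Marchf1 the higher knockout-labelled library lay just under the lower WT one, at 77.6 CPM.

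Here too other markers moved. The mature DC markers summed to 17759 and 19807 CPM in the unstimulated knockout-labelled libraries against 11240 and 13095 CPM in WT, 7 of 10 were higher, and Ccr7 was higher by 0.75 on the log2 scale (SE 0.168, edgeR adjusted p 0.0189). Of the 10 conventional DC markers 1 was higher, 2 were lower and 7 did not pass. Zbtb46 was higher by 0.80 on the log2 scale (edgeR adjusted p 0.00515), and Xcr1 and Clec9a had log2 differences of -2.05 and -1.78 (adjusted p 0.0116 and 0.00181). Of the 10 macrophage and monocyte markers 2 were higher, C1qa by 3.24 and Fcgr1 by 2.50 on the log2 scale, with sums of 1275 and 1327 CPM against 1218 and 1641 CPM in WT. Of 6 neutrophil markers tested 4 were lower, with sums of 48.9 and 62.9 CPM against 100.4 and 157 CPM. B cell markers summed to 65.8 and 84.3 CPM against 127 and 239 CPM, and 0 of 6 tested passed. The part of these in the class II differences was not tested.

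LPS in knockout-labelled BMDCs called 0 of the 10 genes in edgeR, where 0% of all 13072 genes were called. At an unadjusted p under 0.05 there were 5 of the 10 and 2800 of all genes, DESeq2's test called 4 and 793, and limma-voom called 0 and 0. The median log2 change of the 10 was -0.22. The libraries did not overlap for 4 of the 10, all lower with LPS, while 36.9% of all genes were all lower and 19.2% all higher. This comparison and the preceding one share the unstimulated knockout-labelled libraries, and that one shares the unstimulated WT libraries with LPS in WT BMDCs, so the values of the 3 stand side by side and are not independent.

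The gene with the smallest p was Marchf1, at 72.2 and 76.2 CPM without and 29.8 and 40.3 CPM with LPS, a log2 change of -1.0 (SE 0.166, edgeR adjusted p 0.0635). H2-DMb1 stood at 77.8 and 85.6 CPM with LPS, with a log2 change of -0.85 (SE 0.223, adjusted p 0.105). H2-DMa, at 88.4 and 77.1 CPM with LPS, had a log2 change of -0.78 (adjusted p 0.179). With DESeq2's test these 3 and H2-Ab1 were the 4 called.

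H2-Ab1 stood at 1187 and 1041 CPM with LPS, with a log2 change of -0.84 (SE 0.271, edgeR adjusted p 0.143), and its libraries did not overlap with the unstimulated ones. The libraries did overlap for Ciita, at 249 and 211 CPM with LPS, for H2-Aa at 2410 and 2066 CPM and for H2-Eb1 at 2470 and 1955 CPM. They overlapped also for Cd74, at 5307 and 5080 CPM with one of them above unstimulated replicate 1. H2-DMb2 was the one gene of the 10 with a log2 change above 0.3 there, at 87.0 and 61.8 CPM with LPS (0.41, SE 0.166, adjusted p 0.204).

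With LPS present, the knockout label also called 0 of the 10 in edgeR, where 0% of all genes were called. At an unadjusted p under 0.05 there were 2 of the 10 (H2-Oa and Marchf1) and 1330 of all genes, DESeq2's test called 0 and 150, and limma-voom called 0 and 0. The libraries were all lower under the knockout label for 3 of the 10 (Cd74, H2-DMb1 and Marchf1) and all higher for 1 (H2-Oa), against 20.9% and 25.2% of all genes. H2-Oa was at 21.0 and 16.1 CPM in knockout-labelled against 10.4 and 14.7 CPM in WT cells, with a log2 difference of 0.55 (SE 0.224, adjusted p 0.467). Marchf1 was at 29.8 and 40.3 against 49.0 and 42.6 CPM, with a log2 difference of -0.41 (SE 0.167, adjusted p 0.468). Ciita lay at 249 and 211 against 199.8 and 261 CPM, a log2 difference of -0.03 (SE 0.165), so its groups overlapped fully.

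Whether LPS acted differently under the 2 genotype labels was tested by the interaction, the LPS change of the knockout-labelled cells minus that of the WT cells. It called 0 of the 10 in edgeR, where 4.48% of all genes were called, 0.566% higher and 3.91% lower. At an unadjusted p under 0.05 there were 2 of the 10 (Ciita and H2-Oa), and DESeq2's test and limma-voom called 0. Over all genes these counts were 2789, 1082 and 504. The estimates were positive for 9 genes, with a median of 0.39, and -0.26 for Marchf1. The largest was H2-Oa at 0.86 (SE 0.312, adjusted p 0.159), followed by H2-DMa at 0.70 (SE 0.396, adjusted p 0.364) and Ciita at 0.56 (SE 0.233, adjusted p 0.211). A fall that passed the test in WT and not in knockout-labelled cells is thus not shown to differ between them for any of the 10.

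In the tumoral DCs 0 of the 10 were called between the late and early stage in edgeR, where 0.023% of all 13040 genes were called. At an unadjusted p under 0.05 there were 0 of the 10 and 1438 of all genes, and DESeq2's test and limma-voom called 0 of the 10 and 311 and 24 of all genes. The log2 changes ran from -0.35 for Marchf1 to 0.26 for H2-Oa, with a median of -0.19 against 0.01 over all genes. In CPM the libraries did not overlap for 4 of the 10, all lower late. Of all genes 28.4% were all lower and 13.7% all higher. Divided by the TMM factors of the fit (1.11 and 0.968 early, 0.997 and 0.933 late), the CPM of all 4 genes overlapped. The biological coefficient of variation was 0.278 here and 0.138 in the BMDCs.

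Ciita stood at 247 and 183.4 CPM early and at 154 and 183.0 CPM late (log2 change -0.23, SE 0.232, edgeR adjusted p 0.731). H2-Ab1 stood at 4270 and 5351 CPM early and at 3376 and 4493 CPM late, so that the groups overlapped. Cd74, at 8868 and 11821 CPM early and 7232 and 10046 CPM late, overlapped as well. In every chain and in Cd74 replicate 2 of a stage was higher than replicate 1.

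H2-DMa stood at 452 and 419 CPM early and at 363 and 455 CPM late, with a log2 change of 0.02 that turned to -0.092 when libraries were scaled by their size alone. H2-Aa stood at 4086 and 4615 CPM early and 3211 and 3709 CPM late, without overlap in CPM alone (edgeR adjusted p 0.754). Marchf1 was at 85.2 and 47.3 CPM early against 48.6 and 46.2 CPM late, and without early replicate 1 its log2 change was 0.015 in place of -0.35. The T cell markers moved with this comparison too, and of 8 tested 1 (Lck) fell, by 2.25 on the log2 scale (SE 0.233, edgeR adjusted p 0.0444). The macrophage and monocyte markers, of cells that also express class II, summed to 5061 and 10028 CPM early and to 8629 and 9945 CPM late, and 0 of 10 passed. The part of either in the class II values was not tested.

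Ratios of counts within a library are free of the library scaling. They are given as a description and none was tested. How many other pairs of genes separate the libraries in the same way was not counted. H2-Ab1 over H2-Aa was 1.05, 1.16, 1.05 and 1.21 in the tumoral libraries. In the BMDCs it was 0.790 and 0.813 in unstimulated WT, 0.728 and 0.810 in unstimulated knockout-labelled, 0.533 and 0.658 in LPS-treated WT and 0.492 and 0.504 in LPS-treated knockout-labelled libraries. All 4 LPS-treated libraries thus lay below all 4 unstimulated ones in the balance of beta to alpha chain.

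H2-Eb1 over H2-Ab1 ran the other way, at 1.13 and 0.980 in unstimulated WT, 1.29 and 1.1 in unstimulated knockout-labelled, 1.78 and 1.49 in LPS-treated WT and 2.08 and 1.88 in LPS-treated knockout-labelled libraries. Cd74 over H2-Ab1 was 2.85 to 3.28 in the 4 unstimulated and 3.91 to 5.01 in the 4 LPS-treated BMDC libraries. Relative to H2-Ab1, the counts of H2-Eb1 and Cd74 were thus higher in each LPS-treated library than in any unstimulated BMDC library, without a test.

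H2-DMb2 over H2-DMb1 was 0.147 to 0.241 in the tumoral libraries, 0.308 and 0.219 in unstimulated WT, 0.462 and 0.326 in unstimulated knockout-labelled, 0.541 and 0.545 in LPS-treated WT and 1.12 and 0.722 in LPS-treated knockout-labelled libraries. In 1 library H2-DMb2 had more counts than H2-DMb1. H2-DMa over H2-Oa, the editor against its modulator, was 17.8 to 32.5 in tumoral libraries, 11.1 and 11.2 in unstimulated WT and 6.30 and 6.87 in LPS-treated WT libraries. It was 6.32 and 10.6 in unstimulated and 4.21 and 4.77 in LPS-treated knockout-labelled libraries.

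H2-Ob over H2-Oa, the beta against the alpha chain of DO, was 2.75 and 2.61 in unstimulated WT and 0.351 and 0.543 in LPS-treated WT libraries. In knockout-labelled libraries it was 1.30 and 2.56 without and 0.647 and 0.583 with LPS. Without LPS the beta chain had the more counts in every BMDC library, and with LPS the alpha chain did.

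**Figure D3:**
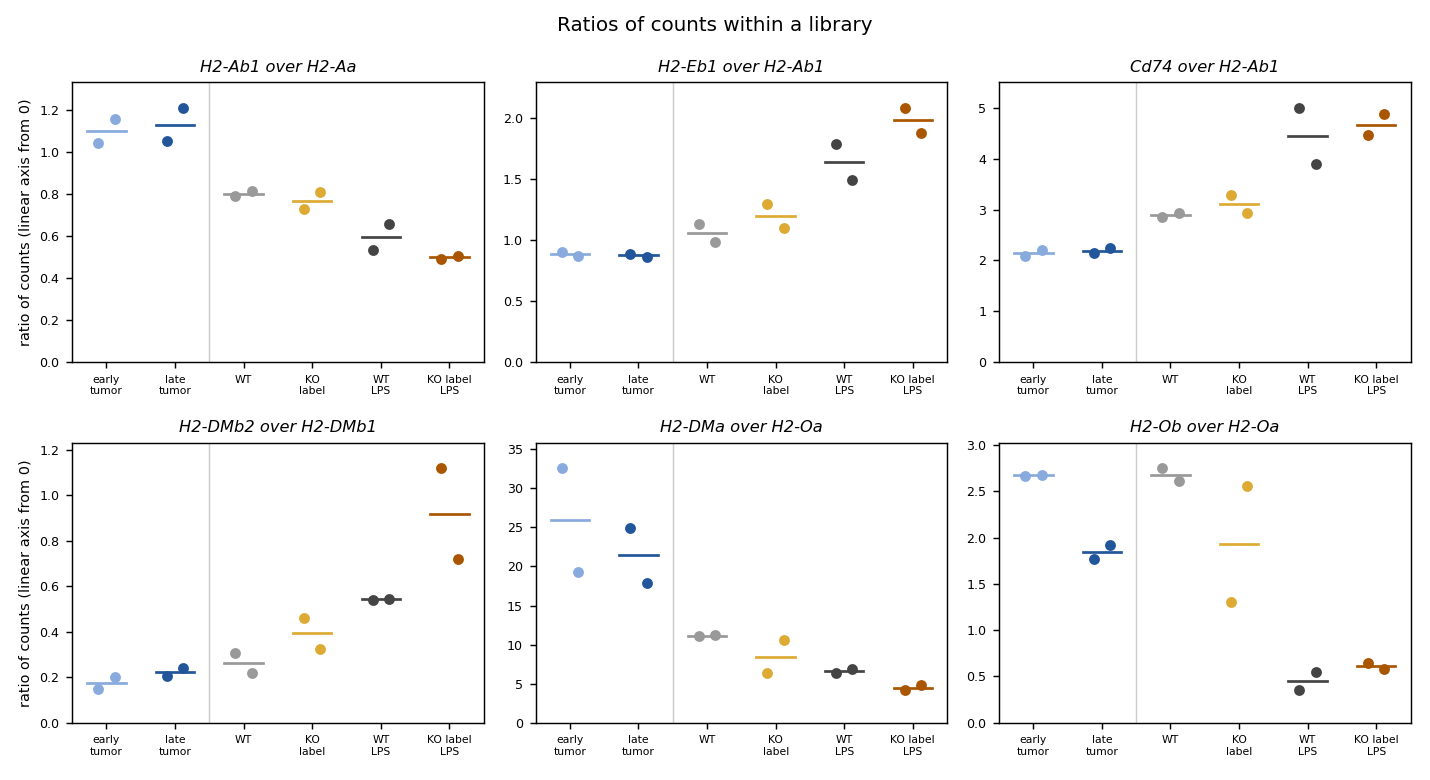
Ratios of counts between pairs of class II genes within each library, on linear axes from 0, by group; points are libraries and bars the means of 2. H2-Ab1 over H2-Aa and H2-Ob over H2-Oa are lower, and H2-Eb1 and Cd74 over H2-Ab1 higher, in all 4 LPS-treated than in all 4 unstimulated BMDC libraries. No ratio was tested.

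H2-Ab1 over Ciita was 17.3 to 29.2 in the 4 tumoral libraries and 4.76 to 8.28 in the 8 BMDC libraries. The tables are separate experiments and were scaled apart, so CPM values of both are shown side by side without a test or a statement of difference, while the ratio is taken within a library. As a description without a test, this ratio was higher in each tumoral library than in any BMDC library. The part of macrophages and monocytes in the ratio of the tumoral libraries was not tested. Over the 8 BMDC libraries the log2 CPM of Ciita and H2-Aa correlated at r = 0.990, that of Ciita and H2-DMb2 at r = 0.003 and that of H2-DMb2 and Marchf1 at r = -0.749, as a description over libraries that share their groups.

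**Figure D4:**
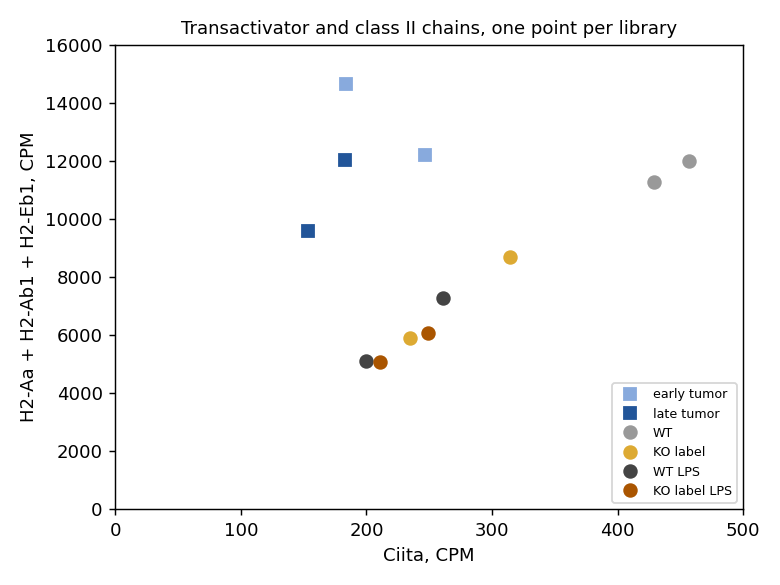
Ciita against the sum of H2-Aa, H2-Ab1 and H2-Eb1, both in CPM, with 1 point per library; BMDC and tumoral libraries are marked by group. The BMDC libraries span 5063 to 11999 CPM of summed chains and 199.8 to 457 CPM of Ciita, and the tumoral libraries lie at 9585 to 14629 CPM with Ciita at 154 to 247 CPM.

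Among 10072 tested genes whose average log2 CPM reached 2, those whose levels over the 8 BMDC libraries were most like Ciita were Ank (r = 0.992), Ripor1, Ercc6l, Dhx37 and Itgb8. Most like H2-Ab1 were Atpif1 (r = 0.998), Bcs1l, Sgsm3, Zmynd19 and Smyd2. Most like Marchf1 were Csf1r (r = 0.987), Sla, Ptgr1, Slc48a1 and Plxdc1. These are the top 5 of each ranking over the same 8 libraries.

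The other genes of the pathway are given by list, and their counts stand beside the shares of all genes called in the same comparison: 20% higher and 17.6% lower for LPS in WT BMDCs, 12% higher and 5.98% lower for the knockout label without LPS. These counts and those of the cell marker lists depend on the processing. Under the alternatives, left-out libraries included, 968 of 1152 list counts stayed within 1.5 times of the main count and 184 did not. Of 7 tested genes in the class II region, 5 rose and 2 fell with LPS in WT BMDCs, with a median log2 change of 0.61. The 5 that rose serve class I presentation or lie between the class II genes: Tap1, Tap2, Psmb8, Psmb9 and Brd2. The 2 that fell were H2-Ob and H2-Eb2, a second E beta gene, which went from 176 and 98.9 to 45.1 and 57.4 CPM (log2 change -1.23, SE 0.328, edgeR adjusted p 0.0255).

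Of 13 genes listed for the preparation of peptides (endosomal proteases, a thiol reductase and a protease inhibitor), 5 rose and 1 fell with LPS in WT BMDCs. Ifi30, the reductase GILT, rose from 504 and 385 to 835 and 911 CPM (log2 change 1.17, SE 0.160, edgeR adjusted p 0.00109). Ctse, cathepsin E, fell from 6.10 and 14.5 to 0.392 and 0.692 CPM (log2 change -4.02, SE 0.600, edgeR adjusted p 0.00177). Ctss, the cathepsin S that cuts the invariant chain in DCs, had a log2 change of 0.10 (adjusted p 0.625). Without LPS the knockout label called 4 of these 13 higher and 0 lower, among them Lgmn at 0.71 and Ifi30 at 0.62 on the log2 scale.

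Of 12 class II promoter factors (RFX, NF-Y, CREB and their partners), 6 rose and 0 fell with LPS in WT BMDCs. Kat2b, an acetyltransferase, rose by 0.83 on the log2 scale (SE 0.134, edgeR adjusted p 0.00216). Rfx5, the X-box factor, rose from 34.6 and 32.4 to 47.7 and 49.4 CPM (log2 change 0.74, SE 0.151, adjusted p 0.00607). For the knockout label without LPS 0 of the 12 passed.

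Of 14 regulators of Ciita, 10 rose and 2 fell with LPS in WT BMDCs. Ifngr1, the interferon gamma receptor chain, was 1 of the 2 that fell, by 1.42 on the log2 scale (SE 0.123, edgeR adjusted p 0.000282). Most of the list thus went the other way. Jak2, a kinase of that receptor, stood at 732 and 613 CPM without and at 1229 and 1128 CPM with LPS. The part of these regulators in the fall of Ciita was not tested. Without LPS the knockout label called 7 of the 14 higher and 1 lower. Jak2 was among those higher, at 0.83 on the log2 scale (SE 0.157, edgeR adjusted p 0.0099). The interaction called 1 regulator higher (Ifngr1, 1.05) and 3 lower, where 0.566% of all genes were called higher and 3.91% lower.

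Of 15 genes of class II ubiquitination and surface turnover, 2 rose and 2 fell with LPS in WT BMDCs, a smaller share in each direction than over all genes. Cd81, a tetraspanin, rose from 38.7 and 35.2 to 114 and 126 CPM (log2 change 1.90, edgeR adjusted p 0.000282), and Cd82, another tetraspanin, fell by 1.61 on the log2 scale (adjusted p 0.0018). The knockout label without LPS called Cd81 and Stat3 higher. In edgeR, LPS in knockout-labelled BMDCs and the knockout label with LPS called 0 genes in each of these lists, as over all genes.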

How the data were processed

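The authors deposited unnormalized read counts for each symbol. The submitters' processing notes name the mm10 build, featureCounts 2.0.1, HISAT2 2.2.1 and fastp 0.12.4. For annotation, strand setting and multiply mapped reads, the choice was not given in the sources used here. Libraries were made from total RNA with a TruSeq kit, per the labels. The 10 genes and all gene lists were chosen with earlier results of these data known. The 4 tumoral and the 8 BMDC libraries were fitted apart in R 4.3.3 with edgeR 4.0.16 (filterByExpr with a minimum count of 10, TMM, glmQLFit robust, glmQLFTest), with 1 mean per group, Benjamini-Hochberg adjustment over all genes tested and calls at an adjusted p under 0.05. The SE is the log2 change divided by the root of F. CPM are counts over library totals. With 2 libraries per group an exact permutation test cannot go below 0.333 and was not used. Other genes were named as the 2 largest called changes of a list in a comparison, beside Pde5a, Ccr7 and Zbtb46 and the 5 most correlated genes; H2-Ea, Marchf8, Ctss, Tap2, Psmb9 and Brd2 were named after their values were seen, and 1 gene that the rule names is not reported here. Alternatives used DESeq2 1.42.0, limma 3.58.1, other scalings and filters, a replicate block and left-out libraries. The steps were tested on simulated data. Positions and promoters are from RefSeq GRCm38.p6, and transcript lengths and overlaps from GENCODE.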

Additional observations from a re-analysis of the deposited data

How the results depend on the processing

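For LPS in WT BMDCs the number of the 10 genes called was 6 to 9 under the alternatives that kept all replicates, 9 with scaling by library size alone and with DESeq2's test, 8 with no filter on low counts and 6 with only the 4 libraries compared, and 2 to 8 when 1 library was left out. For the knockout label without LPS it was 3 with library size alone, 3 with no filter, 7 with DESeq2's test and 0 with only the 4 libraries compared, and 0 to 5 with 1 library left out. For LPS in knockout-labelled BMDCs it was 1 with no filter and 4 with DESeq2's test, and 0 to 2 with 1 library left out. The other 3 comparisons gave 0 under every alternative run. With the replicate number as a block the counts were 2 for LPS in knockout-labelled BMDCs, 3 for unstimulated knockout-labelled against WT and 8 for LPS in WT. The labels do not say what a number marks, and with 2 libraries per group the data do not settle it: deviations of same-numbered libraries correlated at 0.28 between unstimulated and LPS-treated WT BMDCs and at -0.20 to 0.13 between the other BMDC groups.

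Over all genes the calls moved beyond 1.5 times: late against early gave 3, against 311 with DESeq2's test, 24 with limma-voom, 28 with library size alone, 45 with upper-quartile scaling, 689 with no filter and 173 with the replicate block; LPS in knockout-labelled BMDCs gave 0, against 793, 0, 24, 21, 587 and 321. With DESeq2's size factors late against early gave 0 and LPS in knockout-labelled BMDCs gave 22. With a filter of 10 CPM both gave 0. The knockout label with LPS gave 0, against 150 with DESeq2's test, 56 with no filter and 2 with the block. The interaction gave 585, against 1082 with DESeq2's test and 948 with no filter. The knockout label without LPS gave 2357, against 993 with only the 4 libraries compared. Leaving out 1 library also moved the totals of each of these comparisons beyond 1.5 times.

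Signs turned only for genes that were not called. H2-DMa late against early was -0.00094 with DESeq2's size factors, -0.092 with library size alone, -0.012 with a filter of 10 CPM and -0.00096 with DESeq2's test. H2-DMb2 for LPS in WT was -0.046 with upper-quartile scaling, -0.18 with library size alone and -0.027 with the 10 CPM filter. H2-DMa for the knockout label with LPS was 0.0034 with limma-voom and 0.023 with the replicate block. With 1 library left out, the log2 changes of the genes that turned were as follows. Late against early, H2-DMa ran from -0.20 to 0.20, H2-DMb2 from -0.16 to 0.60, H2-Oa from -0.26 to 0.75, Marchf1 from -0.64 to 0.015, H2-Ab1 from -0.46 to 0.10, H2-Eb1 from -0.46 to 0.048 and Cd74 from -0.47 to 0.18. For LPS in WT, H2-DMb2 ran from -0.16 to 0.18. For LPS in knockout-labelled BMDCs, Ciita ran from -0.35 to 0.024, H2-Aa from -0.42 to 0.074, H2-Eb1 from -0.27 to 0.14, Cd74 from -0.46 to 0.033 and H2-Oa from -0.064 to 0.29. For the knockout label, Marchf1 without LPS ran from -0.30 to 0.017, and with LPS Ciita ran from -0.21 to 0.18, H2-Aa from -0.32 to 0.10, H2-Eb1 from -0.31 to 0.16 and H2-DMa from -0.31 to 0.31. In the interaction H2-DMb1 ran from -0.046 to 0.54 and H2-Ab1 from -0.076 to 0.65. The cause was not tested.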
